A study of Mus musculus with 32 samples.

Results

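The genes described here are 10 members of the regulator of G protein signalling (RGS) family that are transcribed in the striatum: *Rgs2*, *Rgs4*, *Rgs7*, *Rgs8*, *Rgs9*, *Rgs10*, *Rgs12*, *Rgs14*, *Rgs16* and *Rgs17*. They were chosen by name and not by a cut on their measured values, though earlier results of these data were known. They were found as 10 of the 23420 gene rows of the count tables. All 10 passed the filter on low counts, as did 15589 genes in all. The samples were bulk striatal RNA of 16 naïve mice, 8 from congenic Line 4a and 8 B6 littermates, sequenced to ask which transcripts differ when a chromosome 11 segment that lowers the locomotor response to methamphetamine is inherited. Line 4a mice carried 1 copy of a segment from the DBA/2J (D2) strain on a C57BL/6J (B6) background, and the littermates carried B6 alleles throughout that segment. Mice of both genotypes were about 50 days old per the labels, had received no drug, and each contributed 1 library made from pooled left and right punches. A D2 marker on chromosome 3 segregated in both genotypes of the line, by the study's account. Home cage and sex were not given by the labels, and neither was modelled. By the study's methods, each genotype held both females and males, and the ages reached above that in the labels. Since the whole D2 segment differs between the groups, no single gene in it can be told apart from its neighbours, and in bulk tissue fewer cells of a type cannot be told apart from less RNA per cell.

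RGS proteins shorten signals from G protein coupled receptors. Each holds an RGS domain that speeds the hydrolysis of GTP by an active G alpha subunit, which returns the subunit to its resting state. In the striatum, dopamine, opioid, adenosine and muscarinic receptors act through G alpha subunits of differing classes. The members fall into subfamilies: R7 (*Rgs7* and *Rgs9*), R4 (*Rgs2*, *Rgs4*, *Rgs8* and *Rgs16*), R12 (*Rgs10*, *Rgs12* and *Rgs14*) and RZ (*Rgs17*).

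In GRCm38.p6 (mm10), the build of the authors' alignment, 5 of the 10 members lie on chromosome 1. *Rgs8* (153652959 to 153697669) and *Rgs16* (153740353 to 153745468) are 42683 bp apart there, with 1 annotated gene starting between them. *Rgs4* (169741477 to 169747642) lies 45663 bp from *Rgs5*, with no annotated gene starting in the gap, and *Rgs2* (143999338 to 144004149) and *Rgs7* (175059076 to 175492862) lie elsewhere on that chromosome. *Rgs9*, at 109225348 to 109298181, is the only member on chromosome 11, the chromosome of the D2 segment. It lies 58.84 Mb distal of *Hnrnph1*, a gene inside the segment, and outside the markers by which the study defined Line 4a. The other members lie on chromosomes 5 (*Rgs12*), 7 (*Rgs10*), 10 (*Rgs17*) and 13 (*Rgs14*). No exon of another gene overlapped a member's exons in the GENCODE annotation of mm9.

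Promoter windows, from 250 bases before to 50 after an annotated start, were found in RefSeq (GRCm38.p6) for 9 of the 10 members, all but *Rgs14*. Some genes have more than 1 annotated start, which gave 12 windows for these 9 genes. The letters TGACG, the core of the cyclic AMP response element to which the activity-dependent factor CREB binds, occurred on either strand in 4 of the 12 windows and in 20.8% of all 32851 windows. The 4 windows were 1 each of *Rgs2*, *Rgs4*, *Rgs8* and *Rgs12*. *Rgs2* held the letters 67 and 185 bases before its start, and *Rgs4* held them 141 and 236 bases before its start. *Rgs8* held them 46 bases before a start at 153653037, which lies inside the printed span of the gene, and *Rgs12* held them 82 bases before an internal start at 34999078 of chromosome 5. A stretch of 30 bases is printed around each match of *Rgs2*, which moved across mice with activity-regulated genes as given further on, and of *Rgs4*, which did not pass the same test. Letters run 5′ to 3′ on the strand of the gene, and the capitals mark TGACG or its complement CGTCA.
Rgs2, chr1:144004199-144004228, minus strand: ttggggcgtggcTGACGcctccaggtcccg
Rgs2, chr1:144004317-144004346, minus strand: atgcggcgcctaCGTCAacagcgccctcgc
Rgs4, chr1:169747766-169747795, minus strand: gcatccctgatgCGTCAgttgtttcttcct
Rgs4, chr1:169747861-169747890, minus strand: aaatgcaaaactTGACGcgtaggtagaaac
A TATA box sequence, TATAAA on the transcribed strand, occurred in 2 of the 12 windows and in 8.32% of all windows. It lay 31 bases before the start of *Rgs4* and 195 bases before that of *Rgs9*. The *Rgs4* match is printed because this gene had the highest level of the 10, with TATAAA in capitals.
Rgs4, chr1:169747656-169747685, minus strand: gcgtggctgagcTATAAAagagaccccacc
These matches describe the letters in the windows and do not show that a factor binds there.

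Counts on genes ranged from 19032826 to 33748353 per B6 library and from 24912413 to 32085311 per Line 4a library. Line 4a mouse 1 stood apart. Of its tallied alignments, 27.3% were of reads that aligned to more than 1 place, against 19.5% to 21.4% in the B6 mice. Its median correlation with the other libraries was 0.950. It was the outlying mouse of its group, by Dixon's criterion, for 5620 of 15589 genes (36.1%). B6 mouse 8 came next, with 1174 genes (7.53%), while each of the other 14 mice was outlying for at most 0.641% of genes.

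The order of transcript levels was examined first. Per length of exon, *Rgs4* had the highest level in every mouse, at 314 ± 43.0 RPKM (reads per kilobase of exon and per 1000000 TMM-scaled counts on genes, mean ± SD, n = 16 mice). *Rgs4* encodes a regulator of receptors coupled to G alpha i and G alpha q, and alone it made up 50.9% of the summed level of the 10 members. *Rgs9*, known for a striatum-enriched splice form that curbs dopamine and opioid receptor signalling, came second at 131.5 ± 16.4 RPKM, or 21.3% of the sum. Each of the other 8 members contributed 6.12% or less.

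*Rgs8* (37.7 ± 4.28 RPKM) and *Rgs7* (34.6 ± 3.36) followed. A group of 3 members lay close together below them: *Rgs2* at 26.0 ± 4.83, *Rgs14* at 25.8 ± 3.34 and *Rgs10* at 24.9 ± 3.69 RPKM. Next were *Rgs17* at 10.2 ± 1.09 and *Rgs12* at 9.62 ± 1.04 RPKM. *Rgs16* was lowest at 2.23 ± 0.516 RPKM, below the mean level of *Rgs4* by 141-fold. Between neighbours in this order, the ratio within mice differed from 1 for *Rgs4* over *Rgs9* (2.39-fold), *Rgs9* over *Rgs8* (3.48-fold), *Rgs7* over *Rgs2* (1.34-fold), *Rgs10* over *Rgs17* (2.44-fold) and *Rgs12* over *Rgs16* (4.40-fold), with adjusted p of 0.000165 or less in exact sign-flip permutation tests over 9 neighbouring pairs. Neighbours that did not differ beyond their spread were *Rgs8* and *Rgs7* (adjusted p = 0.133), *Rgs2* and *Rgs14* (0.998), *Rgs14* and *Rgs10* (0.404), and *Rgs17* and *Rgs12* (0.277) in the same exact test.

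The order depended in part on the length used. When counts were divided by the longest protein coding transcript, *Rgs9* rose to 242.6 ± 30.2 RPKM and *Rgs10* to 48.4 ± 7.18, which moved *Rgs10* from the seventh place to the third. *Rgs4* and *Rgs9* stayed highest and *Rgs16* lowest under both lengths, and *Rgs12* and *Rgs17* exchanged places. Neighbours that had not differed by exon union then did in the same exact test, with *Rgs8* above *Rgs7* (adjusted p = 0.0192), *Rgs2* above *Rgs14* (0.00216) and *Rgs12* above *Rgs17* in 16 of 16 mice (5.49e-05), while *Rgs10* and *Rgs8* did not (0.289).

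**Figure D1:**
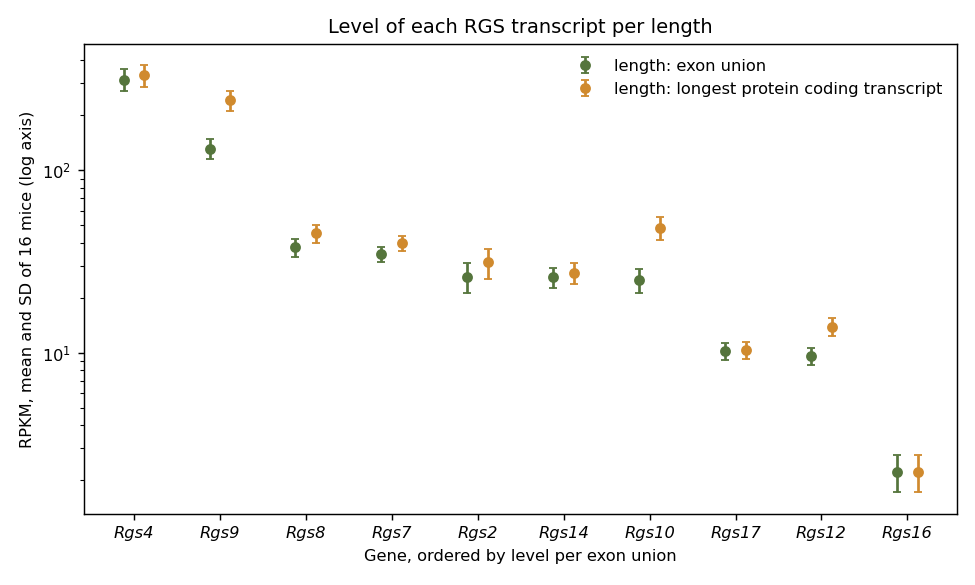
Level of each RGS transcript in RPKM on a log axis, as the mean and SD of 16 mice, with counts divided by the exon union (green) or by the longest protein coding transcript (orange). *Rgs4* (314 RPKM by exon union) and *Rgs9* (131.5) lie above the other 8 genes and *Rgs16* (2.23) lies below them, while *Rgs10* shifts most with the length used, followed by *Rgs9*.

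Line 4a mice were then compared with B6 littermates. None of the 10 members passed an FDR of 5% and 0 of 10 reached an unadjusted p of 0.05 in edgeR's quasi-likelihood test, against 1559 of 15589 genes (10%) at that p (5.14% lower and 4.86% higher in Line 4a) and 0.00641%, or 1 gene (*Tnip1*, named after its values were seen), at the FDR. DESeq2 and edgeR's likelihood ratio test likewise called 0 of 10 at either threshold. The 95% intervals of the 10 differences ran from -0.53 to 0.27 on the log2 scale, so differences of up to that size are not excluded by these data. In no member did the genotypes separate without overlap, which 0.0577% of all genes did.

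The estimated log2 fold changes (Line 4a minus B6) ranged from -0.22 to 0.07 with a median of -0.07, against a median of 0.01 over all genes. Estimates were below 0 for 8 of 10 members and for 45.1% of all genes tested. The same 8 were below 0 under RLE and upper-quartile scaling. The median standard error was 0.089 for the members and 0.082 for all genes, so the members were measured about as precisely as other genes. Exact two-sided permutation tests of mean log2 CPM over the 12870 assignments of 16 mice gave p from 0.112 (*Rgs12*) to 0.844 (*Rgs9*).

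**Figure D2:**
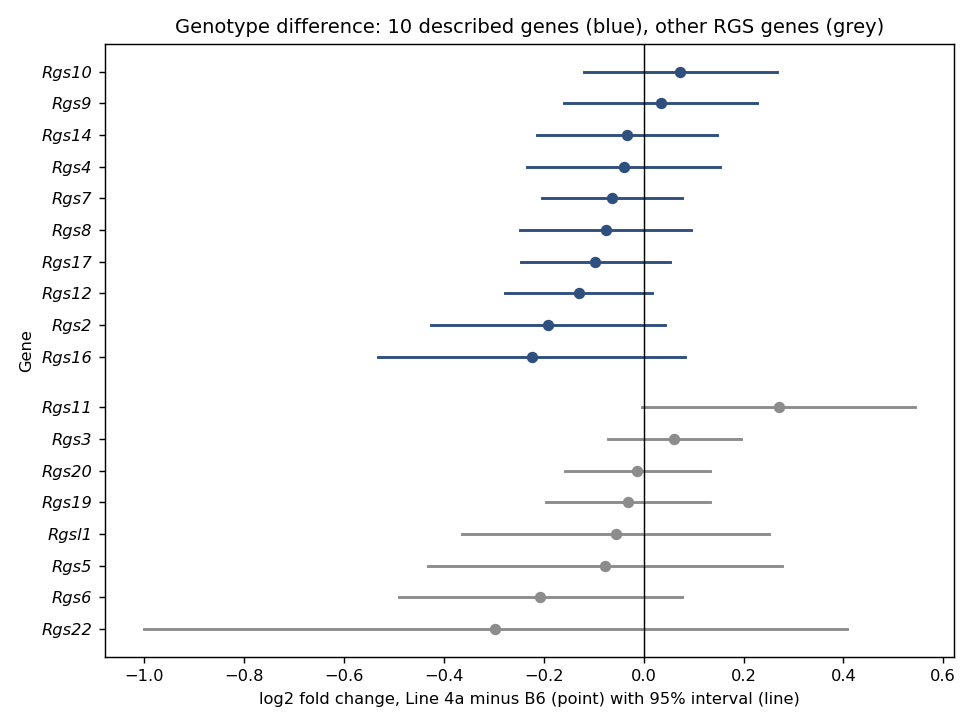
Log2 fold change of Line 4a over B6 with its 95% interval for the 10 described genes (blue) and 8 other RGS genes that passed the filter (grey). Every interval includes 0, and the widest among the 10 belongs to *Rgs16*, which has the fewest counts.

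In the R7 subfamily, whose members work as pairs with the G beta 5 subunit, both genes overlapped between genotypes. *Rgs9* ran from 704 to 954 CPM in B6 mice (median 815) and from 561.7 to 945.8 in Line 4a mice (median 902). CPM here is the TMM-scaled count of a gene per 1000000 counts on genes. The lowest value belonged to Line 4a mouse 1, and the other 7 Line 4a mice lay at 807.6 CPM or more. Mean *Rgs9* was 830.5 ± 85.4 CPM in B6 and 850.4 ± 126.1 in Line 4a (n = 8 each). The log2 fold change was 0.03 ± 0.09 (SE), with a 95% interval of -0.16 to 0.23 and an FDR of 0.918. Leaving out 1 mouse at a time gave 0.005 (without B6 mouse 1) to 0.10 (without Line 4a mouse 1).

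*Rgs7*, the R7 member that regulates G alpha o coupled receptors in many brain regions, ran from 52.2 to 65.7 CPM in B6 mice (median 57.2) and from 48.4 to 67.4 in Line 4a mice (median 53.3). Line 4a mice held both the highest and the 4 lowest values. The log2 fold change was -0.06 ± 0.07 (95% interval -0.20 to 0.08, FDR 0.760). Without Line 4a mouse 1, which held the highest value, it was -0.11 (p = 0.0564), and without B6 mouse 2 it was -0.03.

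The proteins that partner R7 members were also without a call. Of 5 listed, 4 passed the filter and 0 reached p = 0.05. *Gnb5*, the obligate G beta partner, had a log2 fold change of 0.03 ± 0.08. The membrane anchor *Rgs7bp* and the orphan receptor *Gpr158*, which recruits R7 complexes to the membrane, each had -0.07, with standard errors of 0.10 and 0.07. *Gpr179*, at about 1 CPM, had 0.18 ± 0.22. Without Line 4a mouse 1 the sign changed for *Gnb5* (-0.02) and *Rgs7bp* (0.0047).

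In the R4 subfamily of small RGS proteins, *Rgs4* ran from 880 to 1306 CPM in B6 mice (median 921) and from 770 to 1079 in Line 4a mice (median 1009). In all, 3 Line 4a mice lay below every B6 mouse, yet the Line 4a median was the higher one, and the log2 fold change was -0.04 ± 0.09 (95% interval -0.23 to 0.15, FDR 0.898). It spanned -0.07 to 0.03 when 1 mouse at a time was left out. *Rgs8*, known also from Purkinje cells of the cerebellum, ran from 236.2 to 321.7 CPM in B6 mice (median 263.1) and from 177.6 to 281.5 in Line 4a mice (median 267.0). As with *Rgs9*, the lowest *Rgs8* value was that of Line 4a mouse 1, and the other 7 Line 4a mice fell within 251.3 to 281.5 CPM, inside the B6 range. The *Rgs8* log2 fold change was -0.08 ± 0.08 (FDR 0.763), and -0.02 without that mouse.

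*Rgs2*, a regulator with a preference for G alpha q whose transcript is induced by neuronal activity, ran from 70.4 to 127.0 CPM in B6 mice (median 97.1) and from 74.8 to 103.8 in Line 4a mice (median 88.0). All but 1 of the 8 Line 4a mice lay below the B6 median, but the whole Line 4a range lay inside the B6 range. The coefficient of variation was 21.8% among B6 mice and 10.3% among Line 4a mice. Mean *Rgs2* was 100.8 ± 22.0 CPM in B6 and 88.2 ± 9.06 in Line 4a (n = 8 each). The log2 fold change was -0.19 ± 0.11 (95% interval -0.43 to 0.04), with an unadjusted p of 0.104 and an FDR of 0.575. Without B6 mouse 1, the B6 mouse with the lowest *Rgs2*, it was -0.25 (p = 0.0226, FDR 0.515), and the smallest estimate, without B6 mouse 2, was -0.14.

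*Rgs16*, an R4 member known as a clock-controlled and feeding-responsive gene, had the lowest counts, 76 to 259 per mouse. It ran from 3.99 to 7.59 CPM in B6 mice (median 5.47) and from 3.71 to 6.77 in Line 4a mice (median 4.86). The highest Line 4a value was that of mouse 6, and the other 7 lay at 5.15 CPM or less. The log2 fold change was -0.22 ± 0.15 (95% interval -0.53 to 0.08, p = 0.141, FDR 0.608). Leaving out Line 4a mouse 6 gave -0.31 (p = 0.0393, FDR 0.538), and leaving out B6 mouse 1 gave -0.15 (p = 0.326).

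In the R12 subfamily, *Rgs12*, which encodes a large scaffold with further domains beside its RGS domain, had the smallest p of the 10. It ran from 61.8 to 90.0 CPM in B6 mice (median 81.6) and from 63.1 to 85.4 in Line 4a mice (median 72.6). As many as 7 of 8 Line 4a mice lay below the B6 median, but the lowest value of all was that of a B6 mouse. Its mean was 79.5 ± 8.62 CPM in B6 and 72.6 ± 6.67 in Line 4a (n = 8 each). The log2 fold change was -0.13 ± 0.07 (95% interval -0.28 to 0.02, p = 0.0797, FDR 0.545), and it stood at rank 2276 of all genes by p. It was -0.18 (p = 0.00841, FDR 0.603) without B6 mouse 3 and -0.17 (p = 0.0237, FDR 0.516) without Line 4a mouse 5, and it came down to -0.10 without Line 4a mouse 1. With the lane pair as a term, *Rgs12* had -0.13 ± 0.06 (p = 0.0469, FDR 0.513).

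*Rgs14*, best known from pyramidal neurons of the hippocampus, ran from 56.9 to 76.2 CPM in B6 mice (median 63.7) and from 54.0 to 84.1 in Line 4a mice (median 61.5). Both extremes were Line 4a mice, and the log2 fold change was -0.03 ± 0.09 (95% interval -0.21 to 0.15, FDR 0.911). It spanned -0.10 to 0.004 when 1 mouse at a time was left out. The study names *Rgs14* among the genes of a G protein coupled receptor pathway that it reports as downregulated in Line 4a. Its pathways were drawn from the genes it called at an FDR of 5%, so *Rgs14* was among those calls. At that FDR the study called many more genes than the 1 called in the main fit here. The study's edgeR model had home cage as a term, and the labels do not give it. Why the fits differ was not tested. *Rgs10*, a small RGS protein abundant in microglia as well as in neurons, ran from 38.0 to 48.1 CPM in B6 mice (median 39.7) and from 38.8 to 63.4 in Line 4a mice (median 40.4). The value of 63.4 was that of Line 4a mouse 1, and the other 7 reached at most 44.5 CPM. The *Rgs10* log2 fold change was 0.07 ± 0.09 (FDR 0.804), and -0.02 without that mouse.

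*Rgs17*, of the RZ subfamily that acts on G alpha z and other G alpha i class subunits, ran from 66.6 to 106.5 CPM in B6 mice (median 89.0) and from 74.8 to 88.6 in Line 4a mice (median 81.6). All 8 Line 4a mice lay below the B6 median, and all 8 lay inside the B6 range. Mean *Rgs17* was 87.2 ± 11.8 CPM in B6 and 81.5 ± 4.22 in Line 4a (n = 8 each). The log2 fold change was -0.10 ± 0.07 (95% interval -0.25 to 0.05, p = 0.189, FDR 0.647). With B6 mouse 8 left out it was -0.15 (p = 0.0185, FDR 0.511), and with Line 4a mouse 1 left out as well it was -0.17 (p = 0.00544, FDR 0.259). With B6 mouse 2 left out it was -0.05 (p = 0.465).

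**Figure D3:**
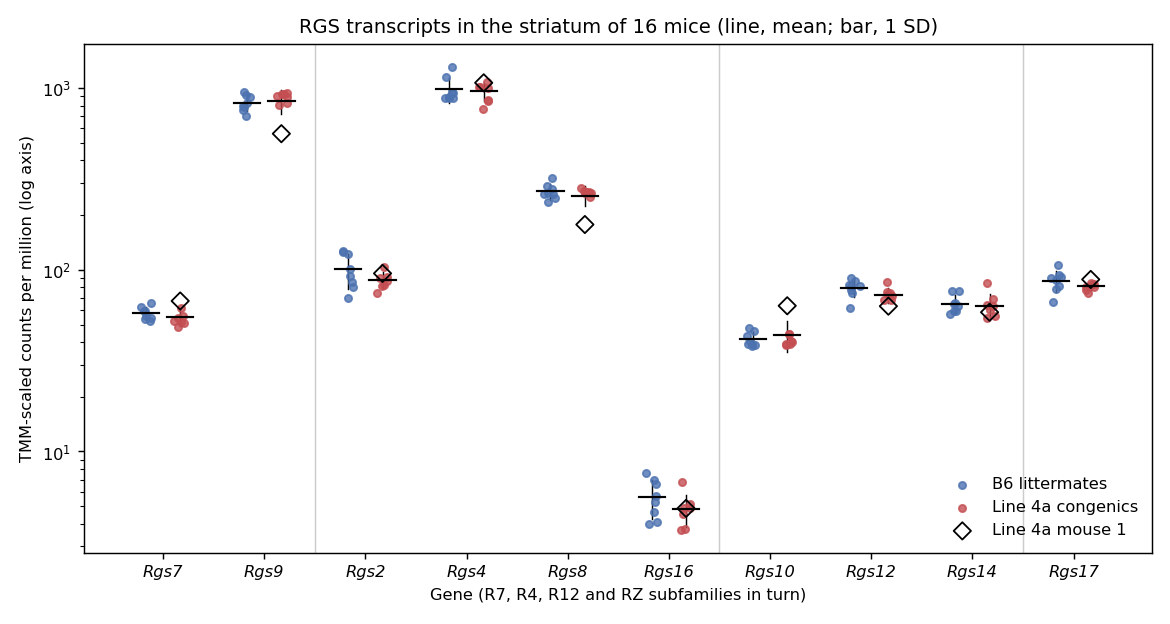
TMM-scaled CPM of each RGS transcript on a log axis, with 1 point per mouse, B6 littermates in blue and Line 4a in red, a line at the mean and a bar of 1 SD. The open diamond is Line 4a mouse 1, which lies below the other mice for *Rgs9* (561.7) and *Rgs8* (177.6) and above them for *Rgs10* (63.4).

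Mice 1 to 4 of each genotype were sequenced on lanes 5 and 6, and mice 5 to 8 on lanes 7 and 8. In these sets of 4 against 4, the log2 fold change of *Rgs4* was 0.08 on the first pair of lanes and -0.17 on the second. For *Rgs2* it was -0.11 and -0.28, for *Rgs12* -0.17 and -0.10, for *Rgs16* -0.29 and -0.17, and for *Rgs17* -0.17 and -0.02. The difference between lane pairs was not past an unadjusted p of 0.05 for any of the 10 members in edgeR's interaction test, where 1.88% of all genes were. The smallest interaction p among the members was 0.181, for *Rgs4*.

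Other genes of the pathway were compared from lists. Of 12 further RGS genes, 8 passed the filter and 0 reached p = 0.05. *Rgs11*, an R7 relative, came closest at 0.27 ± 0.13 (p = 0.0527, FDR 0.504). Without B6 mouse 8, which held the lowest *Rgs11* value, its log2 fold change was 0.16 (p = 0.0227), and no omission of 1 mouse brought its FDR under 0.362. *Rgs6*, another R7 relative, had -0.21 ± 0.14, the regulators *Rgs3* and *Rgs5* had 0.06 and -0.08, and the RZ relatives *Rgs19* and *Rgs20* had -0.03 and -0.01. Without Line 4a mouse 1, which was low for both, *Rgs6* had -0.10 and *Rgs5* had 0.05. *Rgs22* and *Rgsl1*, both below 2 CPM on average in each genotype, had -0.30 ± 0.34 and -0.06 ± 0.15. None of the 13 G alpha subunit genes passed an FDR of 5%, with a median log2 fold change of -0.02. *Gnaz*, which encodes the G alpha z subunit on which RZ proteins act, was 41.9 ± 2.71 CPM in B6 and 35.5 ± 5.31 in Line 4a, with a log2 fold change of -0.24 ± 0.09 (p = 0.0113, FDR 0.406). All 8 Line 4a mice lay below the B6 median of *Gnaz*, and the lowest stood at 22.9 CPM against a Line 4a median of 36.5. *Gna15*, at a mean of 2.88 CPM in B6 and 3.30 in Line 4a, had 0.20 (p = 0.0231). *Gnaq* had -0.13 (p = 0.0552), with a lowest Line 4a value of 117.6 CPM against a median of 164.3. These p-values are from edgeR's quasi-likelihood test. Of 20 striatal G protein coupled receptors, 2 were lower at p under 0.05, 0 were higher, and 0 passed an FDR of 5%. The 2 were *Oprm1*, at about 1 CPM, with -0.80, and the serotonin receptor *Htr2c* with -0.18. Over all genes, 5.14% were lower and 4.86% higher at that p.

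Markers of the cells in the punches were set beside these values. Striatal projection neuron markers were present in every mouse at a summed 7978 to 11692 CPM in B6 and 8690 to 9944 in Line 4a, and 0 of 14 reached p = 0.05 (median log2 fold change 0.01). Markers of cortical glutamatergic neurons had a summed 846 to 1267 CPM in B6 and 620 to 1123 in Line 4a. All 14 of these were lower on average in Line 4a, 10 of 14 at p under 0.05 and 0 at an FDR of 5%, with a median of -0.50. Activity-regulated genes were lower on average in Line 4a for 16 of 16, with 5 at p under 0.05, 0 at an FDR of 5% and a median of -0.30, and a summed level of 385 to 871 CPM in B6 and 336 to 653 in Line 4a. Among 12 microglial markers, 11 were higher on average in Line 4a and 0 reached p = 0.05. Their median was 0.07, with a summed 729 to 868 CPM in B6 and 787 to 980 in Line 4a. At p under 0.05 the other lists held 1 lower gene of 10 for hippocampal neurons, 0 of 10 for thalamic neurons and 1 higher of 10 for astrocytes. There were 0 of 10 for oligodendrocytes, 2 higher of 13 for endothelial and mural cells and 0 of 9 for choroid plexus. Striatal interneurons held 2 higher and 1 lower of 12. Of all genes, 5.14% were lower and 4.86% higher at this p. Higher on average in Line 4a were 9 of 10 oligodendrocyte, 11 of 13 endothelial and mural, and 8 of 9 choroid plexus markers. So were 7 of 10 hippocampal, 5 of 10 thalamic, 7 of 10 astrocyte and 6 of 12 interneuron markers.

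How members moved with these markers among mice of the same genotype was measured on genotype-centred log2 CPM over all 16 mice. Of 30 relations of the 10 members to cortical, projection neuron and microglial scores, 3 passed an adjusted p of 0.05 by Pearson's r and 3 by Spearman's rho. *Rgs7* moved with the cortical score in both measures (r = 0.70, permutation p = 0.00258, adjusted 0.0387, and rho = 0.71, permutation p = 0.00269, adjusted 0.0269). The value of r was 0.57 and 0.80 within the first and second lane pair, 0.64 without the 2 mice farthest from the median score, and 0.88 without Line 4a mouse 1 and B6 mouse 8. Mice with more cortical marker RNA than others of their genotype tended to hold more *Rgs7* transcript. With the cortical score as a covariate in edgeR's quasi-likelihood test, the log2 fold change of *Rgs7* was 0.09 in place of -0.06. That of *Rgs4* was 0.12 in place of -0.04 and that of *Rgs14* 0.02 in place of -0.03, with none at p under 0.05. As a covariate this score was not centred by genotype, and all 14 of its markers were lower on average in Line 4a. Score and genotype thus overlap, and these fits cannot tell their shares in the differences apart.

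*Rgs8* and *Rgs9* moved with projection neuron markers by rank. For *Rgs8*, rho was 0.82 (permutation p = 0.00015, adjusted 0.0045) and r was 0.63 (permutation p = 0.0165, adjusted 0.0988), with r of 0.54 and 0.99 within lane pairs. For *Rgs9*, rho was 0.77 (permutation p = 0.00076, adjusted 0.0114) and r was 0.43 (permutation p = 0.0988, adjusted 0.247), with r of 0.67 and 0.33 within lane pairs. The r without the 2 mice farthest from the median score, B6 mice 5 and 8, was 0.53 and 0.63 in turn. Without Line 4a mouse 1 and B6 mouse 8 both measures passed for both genes, with r of 0.86 for *Rgs8* (adjusted permutation p = 0.0026) and 0.83 for *Rgs9* (adjusted permutation p = 0.0026). *Rgs16* then also passed in both, in the opposite direction (r = -0.71, adjusted permutation p = 0.0288, and rho = -0.76, adjusted 0.0162). Over all 16 mice *Rgs16* did not pass (r = -0.53, adjusted permutation p = 0.133, and rho = -0.65, adjusted 0.0613).

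A pair of relations rested on the outlying libraries. *Rgs10* and the microglial score had r = 0.80 (permutation p = 0.00072, adjusted 0.0216) and rho = 0.59 (permutation p = 0.0181, adjusted 0.109), with r of 0.92 and 0.65 within lane pairs. Line 4a mouse 1 was highest for both, and r without it and B6 mouse 8, the 2 mice farthest from the median score, was 0.48. *Rgs17* and the projection neuron score had r = -0.70 (permutation p = 0.00483, adjusted 0.0483) and rho = -0.44 (permutation p = 0.0894, adjusted 0.308), with r of -0.39 and -0.85 within lane pairs, -0.49 without the 2 farthest mice, and -0.37 without Line 4a mouse 1 and B6 mouse 8.

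*Rgs2* was the member that moved with activity-regulated genes. Over 10 relations to this score, chosen after the differences had been seen, *Rgs2* had r = 0.76 (permutation p = 0.00068, adjusted 0.0068) and rho = 0.72 (permutation p = 0.00201, adjusted 0.0201), and the other 9 members did not pass an adjusted p of 0.05. The r for *Rgs2* was 0.80 and 0.68 within lane pairs, 0.66 without the 2 farthest mice and 0.85 without Line 4a mouse 1 and B6 mouse 8. With the score as a covariate the *Rgs2* genotype difference was 0.01 ± 0.09 in place of -0.19. That of *Rgs16* was -0.33 ± 0.16 (p = 0.0473, FDR 0.999, edgeR's quasi-likelihood test) in place of -0.22. Here too the covariate was not centred by genotype, and 16 of 16 genes in it were lower on average in Line 4a. Its share in these differences therefore cannot be told apart from that of genotype.

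Among the 45 pairs of members, 2 passed an adjusted p of 0.05 by Pearson's r and 0 by Spearman's rho. *Rgs8* and *Rgs9* rose and fell together, with r = 0.87 (permutation p = 0.00031, adjusted 0.0139) and rho = 0.69 (permutation p = 0.00396, adjusted 0.129). The r of this pair was 0.97 and 0.32 within lane pairs and 0.84 without Line 4a mouse 1 and B6 mouse 8. Without the 2 mice with the most extreme *Rgs8*, Line 4a mouse 1 and B6 mouse 1, it was 0.47 (permutation p = 0.0877), so the relation did not hold without that pair of mice. *Rgs2* and *Rgs16* moved in opposite directions, with r = -0.71 (permutation p = 0.00208, adjusted 0.0468) and rho = -0.67 (permutation p = 0.00572, adjusted 0.129). For this pair r was -0.80 and -0.75 within lane pairs, -0.76 without Line 4a mouse 1 and B6 mouse 8, and -0.56 (permutation p = 0.0391) without the 2 mice with the most extreme *Rgs2*. *Rgs9* and *Rgs10* had r = -0.76 (adjusted permutation p = 0.0805), which was -0.27 without Line 4a mouse 1 and B6 mouse 8.

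**Figure D4:**
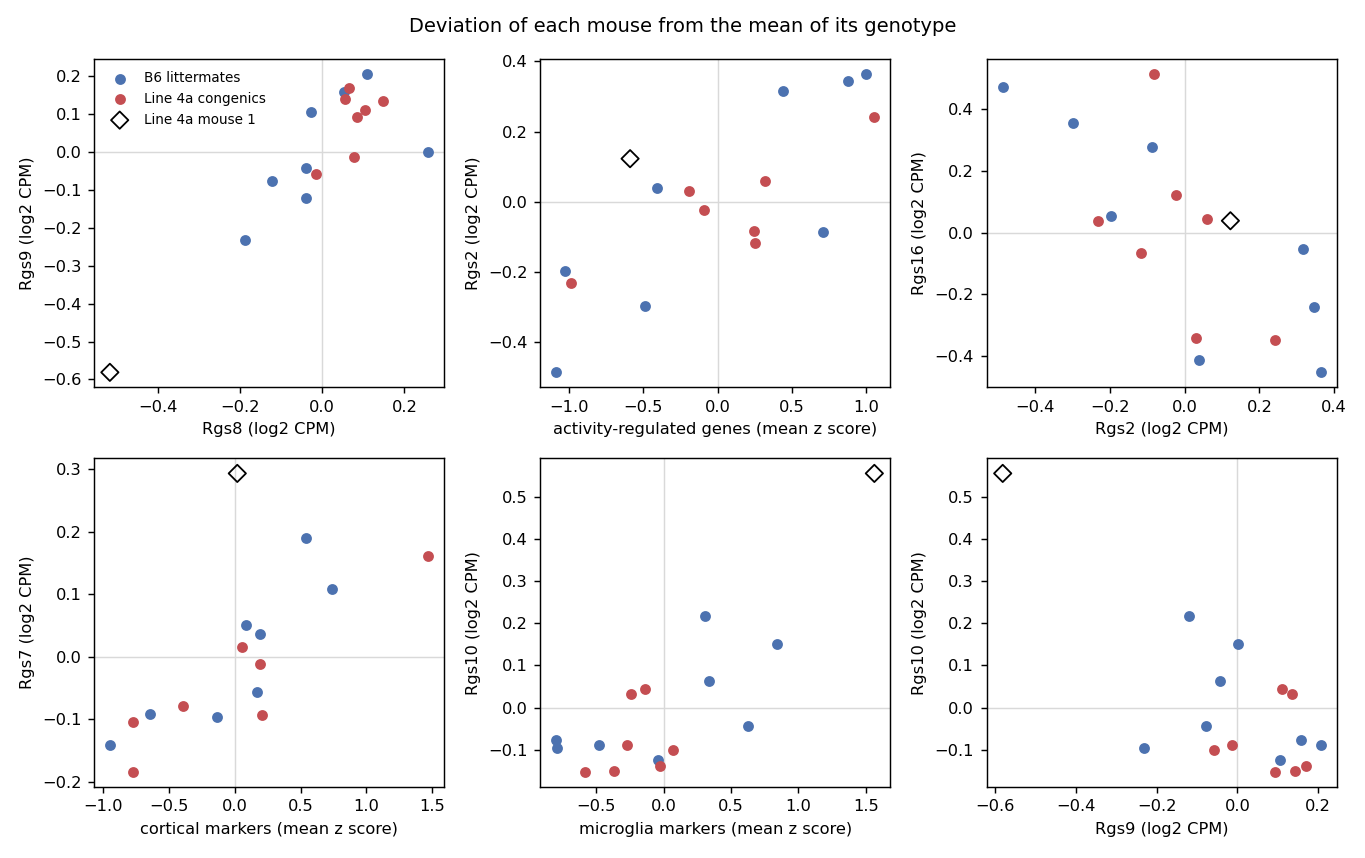
Deviation of each mouse from its genotype's mean, in log2 CPM for single genes and as a mean z score for marker lists, with B6 mice in blue, Line 4a mice in red and Line 4a mouse 1 as an open diamond. *Rgs2* rises with activity-regulated genes (r = 0.76) and falls with *Rgs16* (r = -0.71), *Rgs7* rises with cortical markers (r = 0.70), and the panels of *Rgs8* with *Rgs9* and of *Rgs10* show Line 4a mouse 1 far from the rest.

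The genes most like 4 of the members were found by Pearson's r of log2 CPM over 16 mice, among 11836 genes with a mean of at least 5 CPM. The closest to *Rgs2* were *Egr1* (r = 0.89), an immediate early transcription factor, *Dusp14* (0.87) and *Dusp6* (0.86), which encode phosphatases of the dual specificity family. These remained at 0.92, 0.86 and 0.84 without Line 4a mouse 1 and B6 mouse 8. For *Rgs16* they were *Cbln1* (0.83), a secreted synaptic organiser, *Angel1* (0.74) and *Smcr7* (0.73), at 0.85, 0.82 and 0.79 without those mice. For *Rgs9* they were *Kdm4b*, *Kif17* and *Csnk1g1*, at 0.90, 0.89 and 0.89, and 0.75, 0.73 and 0.76 without those mice. For *Rgs12* they were *Ppp1r16a* (0.84), *1110008J03Rik* (0.83) and *N4bp3* (0.79), at 0.74, 0.78 and 0.75 without those mice. As the closest of many genes, these carry no test.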

How the data were processed

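Poly(A) RNA from bilateral striatal punches was read from 1 end at a length of 50 bases. According to the authors' methods and the submitters' processing notes, reads were aligned with TopHat to mm10 and counted per gene with HTSeq 0.6.1p1, and the counts deposited by the authors are raw, 1 table per mouse and lane. The authors' own fold changes, p-values and FDRs were not used. Counts of the 31 lane files were summed per mouse, after lanes of 15 mice differed by little more than sampling noise. Chi-square per degree of freedom was 0.997 to 1.051, with a median of 1.026. B6 mouse 7 had 1 lane file analysed here. Rows that name no gene were left out of library sizes. Of the alignments tallied per mouse, 19.5% to 27.3% were of multiply aligned reads and 11.3% to 16.7% lay on no or several features.

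Genes were filtered with filterByExpr, scaled by TMM and fitted in edgeR 4.0.16 (R 4.3.3), whose quasi-likelihood F test compared the genotypes, Benjamini-Hochberg adjusted over 15589 genes. The study's model had home cage as a term, which the labels do not give. Errors of fold changes are standard errors, the fold change divided by the square root of F. Log2 CPM used a prior count of 0.5. RPKM used exon lengths by symbol from GENCODE of mm9. Permutation tests of relations used 100000 resamples (scipy 1.17.1), and marker scores were mean standardized log2 CPM. The script was tested on simulated data. At this depth counting error at the lowest count was at most 3.67% for 9 members, so the spread between mice mainly set their precision. For *Rgs16* it was 11.5%, against a coefficient of variation of 24.2% in B6 and 19.9% in Line 4a. Counting noise was thus a larger part of the spread of *Rgs16*.

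Mice were grouped by the genotype in the labels. Deviations of same-numbered mice correlated at -0.17 to 0.52 (median 0.107, over 0.1 in 4 of 8 pairs), which does not settle whether they belong together. The labels name no pairs, so the numbers were not taken as pairs in the main fit. The members, the 5 pathway lists and the 10 marker lists were chosen with earlier results of these data known, and support nothing independently. Named genes were the members, the RGS relatives and R7 partners past the filter, up to 3 genes with the smallest p of each other list, and the 3 genes most like *Rgs9* and the 3 members with the smallest p. Alternatives were RLE and upper-quartile scaling, other count filters, DESeq2 1.42.0, edgeR's likelihood ratio test, single lanes and lanes as samples. Further ones were a lane pair term, a replicate block, marker scores (not centred by genotype) as covariates, and leaving out each mouse. The activity score, the longest transcript and leaving out Line 4a mouse 1 with B6 mouse 8 were chosen after seeing the data.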

Additional observations from a re-analysis of the deposited data

Results flagged for a closer look

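By Dixon's criterion, 9 of 44 groups of 8 mice (22 RGS and partner genes in both genotypes) held a mouse far from the others. That is 20.5% of groups, against 7497 of 31178 groups (24.0%) over all genes tested, so the share is no larger than the background of these libraries. Chance flags about 1 in 20 groups. In 7 of the 9 it was Line 4a mouse 1, the library that was outlying for 36.1% of all genes. That mouse was lowest of its group for *Rgs8* (177.6 CPM, next 251.3), *Rgs9* (561.7 CPM, next 807.6), *Rgs5* (21.0 CPM, next 52.2) and *Rgs7bp* (287.2 CPM, next 459.1). It was highest for *Rgs10* (63.4 CPM, next 44.5), *Gnb5* (316.8 CPM, next 262.9) and *Rgs20* (73.0 CPM, next 61.4). Of other R7 transcripts in this library, *Rgs7* was the highest of its group (67.4 CPM) and *Rgs6* the lowest (9.53 CPM, next 18.1), without meeting the criterion. Line 4a mouse 6 was highest for *Rgs16* (6.77 CPM, next 5.15). B6 mouse 8, the second library that stood apart, was lowest for *Rgs11* (24.1 CPM, next 44.9).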

How the results depend on the processing

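Over 16 settings other than leaving out 1 mouse, 145 of the 160 log2 fold changes of members kept their direction and their side of p = 0.05, 6 passed p = 0.05, 9 changed sign, and the lowest FDR was 0.123. Signs changed for *Rgs4* (0.12), *Rgs7* (0.088) and *Rgs14* (0.019) with the cortical score as covariate, *Rgs2* (0.0087) and *Rgs14* (0.061) with the activity score, *Rgs4* (0.077) on lanes 5 and 6, and *Rgs8* (0.023), *Rgs10* (-0.0049) and *Rgs14* (0.015) without Line 4a mouse 1 and B6 mouse 8. Members at p under 0.05 numbered 3 with lane files as independent samples, which counts each mouse more than once, and 1 with the lane pair term (*Rgs12*), 1 with the activity score (*Rgs16*) and 1 without both mice (*Rgs17*). Leaving out 1 mouse at a time gave 0 to 1 members at p under 0.05 and 0 at an FDR of 5% (lowest 0.382), and changed the sign of *Rgs4* (0.028 without B6 mouse 3, 0.0025 without Line 4a mouse 8), *Rgs10* (-0.025 without Line 4a mouse 1) and *Rgs14* (0.0038 without B6 mouse 2). Over those mice the log2 fold changes spanned -0.066 to 0.028 for *Rgs4*, -0.025 to 0.11 for *Rgs10* and -0.10 to 0.0038 for *Rgs14*. All genes at an FDR of 5% numbered 33 in DESeq2, 20 in the likelihood ratio test, 1068 with lanes as samples, 2 with the lane pair term, 0 with the replicate block (which called 0 members), 0 with the cortical score, 2 with the projection neuron score, 0 in either lane pair, 7 without both mice, and 1 to 4 without 1 mouse (4 without Line 4a mouse 1, 3 without Line 4a mouse 6). All genes at p under 0.05 numbered 3605 with lanes as samples, 279 with the cortical score, 686 with the activity score, 500 on lanes 5 and 6, and 1107 to 2087 without 1 mouse. By longest transcript *Rgs8* was 45.3, *Rgs7* 39.8, *Rgs2* 31.3 and *Rgs12* 13.9 RPKM. Apart from the settings that split or drop mice, the causes were not tested. Same-numbered mice correlated best with each other in 2 of 8 pairs, and the block changed no call of a member, while the relative *Rgs11* had 0.31 (p = 0.0450) with the block and 0.31 (p = 0.0203) with the projection neuron score.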
